A study of Homo sapiens with 6 samples.

Results

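METTL14 occupancy was examined at the host genes of 2 oncogenic microRNA loci, VMP1 with MIR21 on chromosome 17 and MIR17HG on chromosome 13. The members were the candidate islands of both deposited tables that overlap 2 windows of the hg19 genome, 57780000 to 57935000 on chromosome 17 and 91990000 to 92025000 on chromosome 13. An island is a run of windows called by the peak caller SICER. Neighboring islands lie at least 800 bp apart, so shorter gaps inside an island are not seen. The untreated table had 14 islands of these loci among 38696, 12 on chromosome 17 and 2 on chromosome 13. The DRB table had 27 among 67802, 24 and 3. The windows were chosen from untreated islands of high enrichment, so the untreated values below are a description. They carry no test of their own, and the authors' deposited calls are given only as such.

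The cells were HepG2, a human hepatocellular carcinoma line, in which a lentivirus had introduced METTL14 with an HA tag at one end and EGFP at the other. All 6 libraries came from these overexpressing cells, selected with puromycin and sorted for high GFP, so the tagged protein was measured and not the endogenous one. Untreated cells gave 2 anti-HA immunoprecipitation (IP) and 2 input libraries, and cells given 100 µM DRB for 3 h gave 1 of each. DRB blocks the kinase CDK9 and with it the release of RNA polymerase II into elongation, so the comparison asks where METTL14 occupancy depends on transcription.

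METTL14 and METTL3 form the enzyme that writes N6-methyladenosine (m6A) on RNA, with METTL14 holding the RNA substrate. MicroRNAs are cut from longer primary transcripts by DROSHA with its partner DGCR8, and m6A on primary transcripts is known to favor that step. VMP1 encodes a membrane protein of the endoplasmic reticulum needed for autophagosome formation. The MIR21 hairpin lies inside VMP1, near its downstream end in the RefSeq gene order, and its primary transcript can start from a promoter within VMP1. MIR17HG is the noncoding host transcript of the miR-17-92 cluster, a target of MYC also called oncomiR-1. Both miR-21 and miR-17-92 are commonly raised in liver cancer.

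The mature microRNAs encoded by these hosts are shown because they are what the transcripts deliver. The capitals mark the seed, bases 2 to 8, which pairs with target mRNAs. Sequences are RefSeq's (GRCh38.p14), 5′ to 3′, with the arm that is usually the abundant one given for each of the 7 hairpins.
hsa-miR-21-5p: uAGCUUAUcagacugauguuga
hsa-miR-17-5p: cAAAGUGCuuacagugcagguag
hsa-miR-20a-5p: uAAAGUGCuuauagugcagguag
hsa-miR-18a-5p: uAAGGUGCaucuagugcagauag
hsa-miR-19a-3p: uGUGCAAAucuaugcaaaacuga
hsa-miR-19b-3p: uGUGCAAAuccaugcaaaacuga
hsa-miR-92a-3p: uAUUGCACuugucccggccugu

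The 2 loci have no seed in common. miR-17-5p and miR-20a-5p share 1 seed, which 8 human mature microRNAs of the RefSeq table hold, among them miR-106a-5p, miR-20b-5p, miR-106b-5p and miR-93-5p of the paralogous clusters. miR-19a-3p and miR-19b-3p share another. miR-18a-5p shares its seed with miR-18b-5p, and miR-92a-3p shares its seed with miR-25-3p and miR-363-3p. The miR-21-5p seed was held by 2 mature entries in the table and by none of these clusters.

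The methyltransferase prefers a purine pair before ACU in RNA, so the 7 hairpins were searched, on the RNA strand only, for GGACU, then GAACU, then AGACU and then AAACU. Matches stood in 3 of the 7, once each, and they are in capitals below. Of all 1562 human hairpins in the table, whose lengths vary, 25.9% held at least 1 of the 4 motifs. The most favored form, GGACU, was in 8.83% of all hairpins and in none of these 7. A match describes the sequence and is not a measured m6A site.
MIR21: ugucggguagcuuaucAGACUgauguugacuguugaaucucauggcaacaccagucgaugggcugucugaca
MIR19A: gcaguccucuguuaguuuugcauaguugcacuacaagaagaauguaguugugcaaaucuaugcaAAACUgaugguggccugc
MIR19B1: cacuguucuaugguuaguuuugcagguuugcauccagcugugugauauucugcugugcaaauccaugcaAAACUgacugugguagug

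In the values that follow, the fold divides the IP reads of an island by its input reads and applies the authors' depth scaling. Intervals are exact, at 95%, and stand for counting error alone. Replicates are pooled in the untreated table and DRB has 1 library of each kind, so no value has an error between replicates. Depth differed widely: untreated nuclear islands held 14495388 IP and 14661480 input reads, DRB ones 1977419 and 1330018. The median candidate island had 241 IP and 240 input reads untreated, and 21 and 13 with DRB. The median fold of all candidates was 1.08 untreated and 1.51 with DRB. Genes are placed by the windows alone, since no annotation of that build was used here.

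Within the VMP1 window of untreated cells, METTL14 enrichment was concentrated at the microRNA end. VMP1 runs toward higher coordinates, and the final 31 kb of the 155 kb window were taken as that end. Islands with a midpoint at or past 57904000 were assigned to it and all others to the rest. Each was counted whole, also where it reaches outside the window, so the 2 islands of the end span 39.6 kb. The end held 2 islands with 4240 IP and 3067 input reads together, a fold of 1.48 (1.42 to 1.55). The other 10 islands held 8846 IP and 9371 input reads, a fold of 1.01 (0.98 to 1.04). The end stood 1.46 (1.39 to 1.55) times above the rest, a ratio in which the depth scaling cancels.

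The peak of the pattern was a single island of 25.2 kb, from 57902601 to 57927800 on chromosome 17. It had 3184 IP and 2107 input reads, a fold of 1.62 (1.53 to 1.71) and an authors' false discovery rate (FDR) of 1.956e-137. It held 24.3% of the window's IP reads and 16.9% of its input reads. The next island downstream, 57928801 to 57943200, had 1056 IP and 960 input reads and a fold of 1.18 (1.08 to 1.29). It extends past the window, and its midpoint lies just past the window's end. The fold was therefore lower in the neighboring island on the far side, although it stayed above the interval of the rest of the window.

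Along the rest of the VMP1 window the folds stayed close to 1. The long island at the start of the window, 57747801 to 57795000, starts upstream, and 15 of its 47.2 kb lie inside the window. It had 2777 IP and 2904 input reads, a fold of 1.03 (0.97 to 1.08). The island at 57846001 to 57868400 had 1680 IP and 1722 input reads, and that at 57825801 to 57845200 had 1464 and 1600, with folds of 1.05 and 0.98. The folds of the 10 islands ran from 0.86 at 57822001 to 1.23 at 57817401, with a median of 1.01, and the latter was the only one of the 10 whose interval lay above 1. The last island before the end, 57893601 to 57901600, had 340 IP and 365 input reads and a fold of 1.00 (0.86 to 1.16). Its neighbor at 1.62 begins after a gap of 1.0 kb. Both folds are totals over whole islands, so they do not place the rise within the wider island. Read density also differed between these neighbors, from 42.5 to 126 IP reads per kb and from 45.6 to 83.6 input reads per kb.

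**Figure D1:**
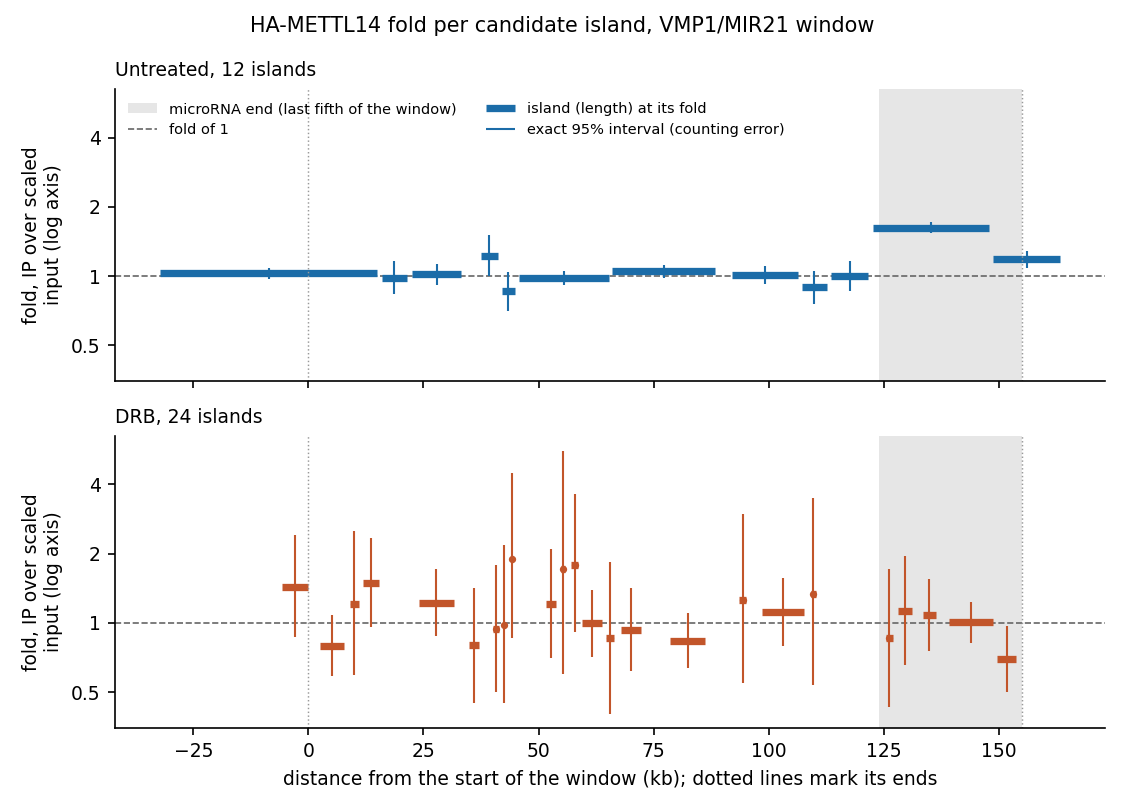
Fold of IP over scaled input (log axis) of each candidate island along the VMP1/MIR21 window, in kb from its start, untreated above and DRB below. Bars span each island's length, vertical lines are exact 95% intervals, and shading marks the microRNA end. The untreated island at the microRNA end stands at 1.62 while the rest lie between 0.86 and 1.23. With DRB the islands of the end lie between 0.70 and 1.13.

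By the authors' rule, an FDR under 1e-04, 3 of the 14 untreated islands were significant, where 5.1% of all untreated candidates were. They were both islands of the VMP1 end and the wide island of the MIR17HG window. The windows were chosen with these calls known, so nothing is read from the count. None of the 10 islands in the rest of VMP1 was significant, and the lowest FDR among them was 0.0101 at 57817401.

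The neighborhood of VMP1 was close to a fold of 1 in untreated cells. Within 1 Mb on either side of the window lay 110 untreated candidate islands, with a median fold of 1.04 (range 0.77 to 1.52). Their summed reads gave 1.02 (1.01 to 1.04), and 1 of the 110 was significant. Input density over the islands of the VMP1 window was 1.33 times the median of all untreated candidates, and chromosome 17 as a whole was at 1.08 times. At the end it was 1.48 and in the rest 1.28. Whether DNA copy number or chromatin state moves the input here was not tested.

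MIR17HG carried a shallower domain in untreated cells, and almost all of its reads lay in 1 island. The island from 91997801 to 92018200 on chromosome 13 spans 20.4 kb and had 1507 IP and 1158 input reads, a fold of 1.40 (1.29 to 1.51). The second, from 92022401 to 92026400, had 194 IP and 188 input reads and a fold of 1.11 (0.90 to 1.36), whose interval includes 1. Both together gave 1.36 (1.26 to 1.46). Only 2 other untreated candidates lay within 1 Mb of this window, with folds of 1.099 and 1.22, so the domain stood almost alone in its region. Input density in the window was 1.05 times the median of all candidates, lower than over VMP1.

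**Figure D2:**
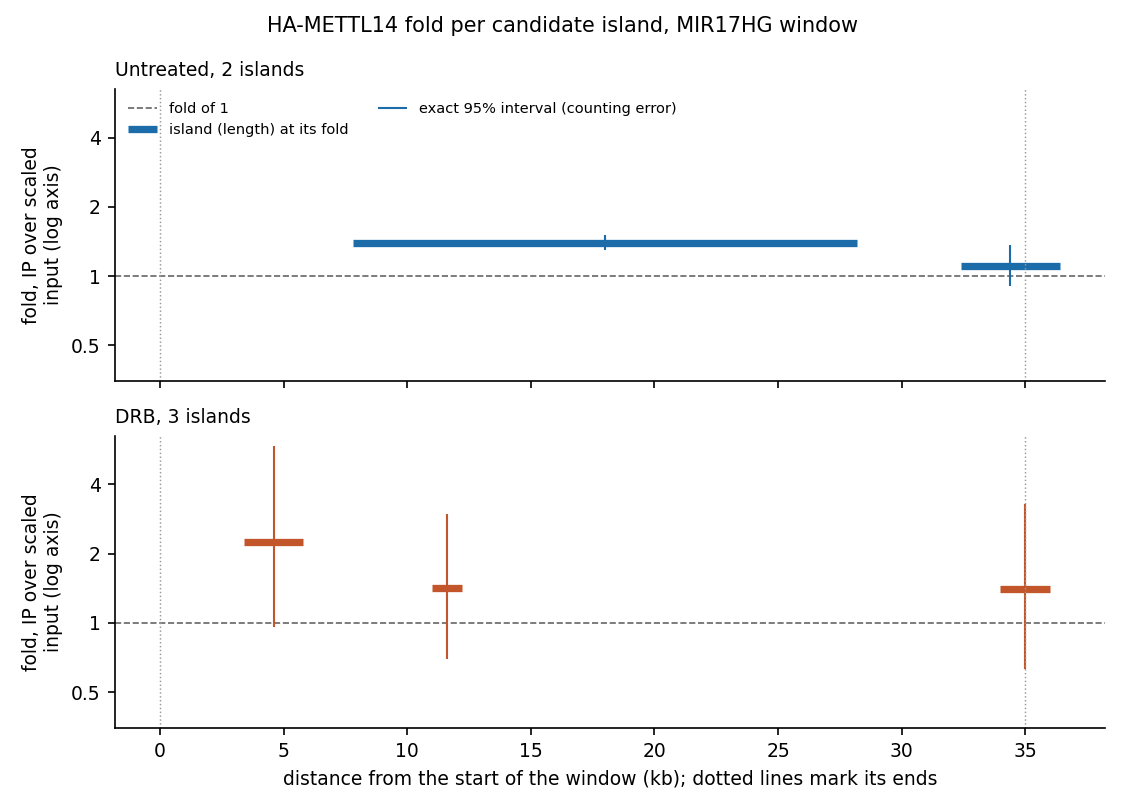
Fold of IP over scaled input (log axis) of each candidate island in the MIR17HG window, in kb from its start, untreated above and DRB below. Bars span each island's length and vertical lines are exact 95% intervals. Untreated cells show a 20.4 kb island at 1.40, and DRB, at lower depth, shows 3 short islands with wide intervals.

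After DRB the higher fold at the microRNA end of VMP1 was not seen. The 5 DRB islands of the end held 410 IP and 372 input reads, a fold of 0.95 (0.82 to 1.09). The 19 islands of the rest held 833 IP and 678 input reads, a fold of 1.06 (0.95 to 1.17). One of these, at 57774201 to 57780000 with 45 IP and 27 input reads, touches the window by 1 bp. The end over the rest was 0.90 (0.75 to 1.07), which did not pass Fisher's exact test of the 4 read counts (two-sided, p = 0.233). That test compares these libraries only, and its interval does not reach the untreated ratio of 1.46. The ratio of the ratios, DRB over untreated, was 0.61 (Wald interval 0.51 to 0.73), and the choice of the end on its untreated enrichment favors a value under 1.

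The islands of the end with DRB were close to a fold of 1 or below it, where the median of all DRB candidates was 1.51. From 0.86% to 20.0% of all DRB candidates had a lower fold than each of these 5 islands. The island of most reads, 57919201 to 57928800, had 216 IP and 185 input reads, a fold of 1.00 (0.82 to 1.23). That at 57913401 to 57916400 had 73 and 58, a fold of 1.08, and that at 57929601 to 57933800 had 68 and 84, the lowest fold of the window at 0.70 (0.50 to 0.97). The highest fold in the end was 1.13, at 57908001 to 57911000, from 34 IP and 26 input reads. Over the extent of the 25.2 kb untreated island, 4 DRB islands covered 64.3% of its length in separate pieces, at the lower DRB depth. They summed to 342 IP and 288 input reads.

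In the rest of VMP1 the DRB folds scattered more widely than the untreated ones, and they come from far fewer reads. The islands had 6 to 110 input reads each with DRB and 182 to 2904 untreated. The DRB folds ran from 0.80 to 1.89 with a median of 1.20. The highest, at 57824001 to 57824400, was a 0.4 kb island with 22 IP and 10 input reads, 1.89-fold (0.86 to 4.48). The 3 islands of most IP reads were lower, with 107 IP and 110 input reads at 57858601, 91 and 64 at 57804001, and 86 and 93 at 57782601, which gave folds of 0.84, 1.22 and 0.80. The last of these was the lowest of the rest. Folds above 1 were found in 11 of the 19, where 88.5% of all DRB candidates were above 1.

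No DRB island in either window was significant, 0 of 27, where 4.76% of all DRB candidates were. The lowest authors' FDR was 0.00175 in the MIR17HG window and 0.00561 in the VMP1 window. An exact one-sided binomial test of the IP share of the reads allows for the noise of the input too. With Benjamini-Hochberg adjustment over all DRB islands, none of the 27 passed at 1e-04 or at 0.05, where 0.00442% and 0.00737% of all DRB candidates did. At this depth the test calls almost nothing, so the lack of calls shows little by itself. Under the authors' scaling, the 172 DRB candidates within 1 Mb of the VMP1 window summed to a fold of 1.23 (1.18 to 1.28). Their median fold was 1.34, where that of all DRB candidates was 1.51.

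**Figure D3:**
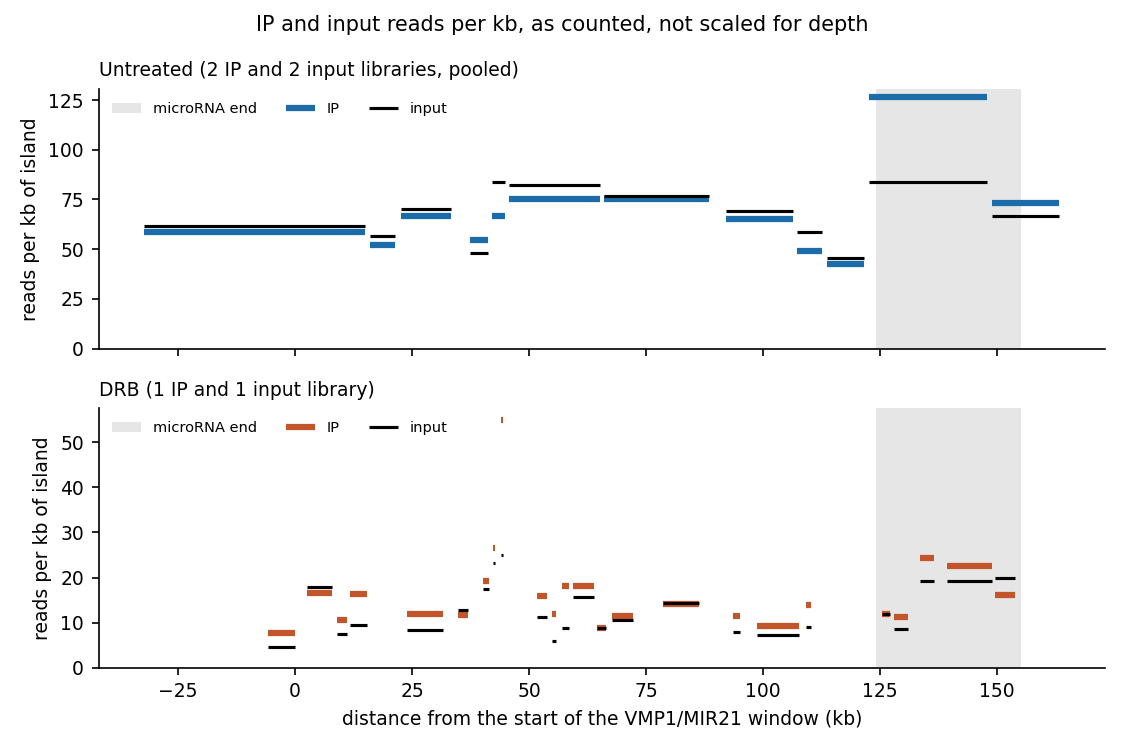
IP and input reads per kb of each candidate island along the VMP1/MIR21 window, as counted, untreated above and DRB below, on separate axes. In the untreated panel the IP rises to 126 reads per kb at the microRNA end and the input to 83.6. In the DRB panel 3 of the 5 islands of the end have 16.2 to 24.3 IP and 19.3 to 20.0 input reads per kb.

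Over the islands called with DRB, both IP and input reads were denser at the microRNA end than in the rest of VMP1. Per kb of island, DRB IP reads were 19.2 in the end and 13.2 in the rest, 1.45 (1.28 to 1.63) times higher in the end. DRB input reads were 17.4 and 10.8 per kb, 1.62 (1.42 to 1.84) times higher. In untreated cells the same ratios were 1.69 (1.63 to 1.75) for the IP and 1.15 (1.11 to 1.20) for the input. These densities are over islands called separately in each condition, so they do not give a change at the same sequence. The islands covered 69.0% of the end and 46.1% of the rest with DRB, against 96.8% and 87.6% untreated, and the part of that coverage in the result was not tested.

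Set against untreated cells under the authors' scaling, the DRB fold was 0.64 (0.55 to 0.74) times as high at the VMP1 end and 1.04 (0.94 to 1.16) times in the rest. The value of the rest turns with the scaling: it was 0.87 (0.78 to 0.96) when all nuclear islands were set to a fold of 1 in each condition. At the end the ratio stayed under 1 with each scaling tried, from 0.49 to 0.64. Selection on the untreated fold favors a lower DRB value, and the islands of the conditions do not cover the same sequence.

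At MIR17HG the DRB data could not show a difference. The 3 DRB islands held 62 IP and 33 input reads together, a fold of 1.62 (1.04 to 2.55). The island at 92001001 to 92002200, with 23 IP and 14 input reads, was the only one over the 20.4 kb untreated domain and covered 5.88% of it. Its fold of 1.41 (0.70 to 2.97) has an interval that holds the untreated 1.40 as well as 1. The highest fold, 2.26 (0.96 to 5.90) at 91993401 to 91995800 with 21 IP and 8 input reads, lay outside that domain, and that at 92024001 to 92026000 had 18 and 11, also a fold of 1.41. DRB over untreated was 1.19 (0.76 to 1.89) for the window, and it turned to 0.72 (0.46 to 1.14) when each chromosome's median was set to a fold of 1. The 13 DRB candidates within 1 Mb summed to a higher fold, 2.04 (1.60 to 2.61), so the window did not stand above its region.

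**Figure D4:**
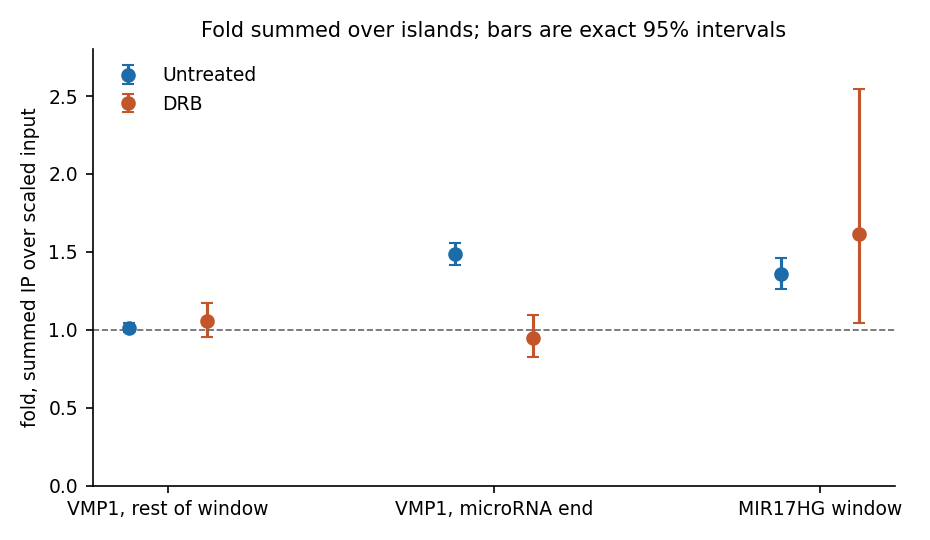
Fold of summed IP over scaled input in the rest of VMP1, its microRNA end and the MIR17HG window, untreated and with DRB. Points are the fold under the authors' scaling and bars are exact 95% intervals. The microRNA end went from 1.48 to 0.95, while the MIR17HG interval with DRB spans 1.04 to 2.55.

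Among broad untreated domains both loci were near the top by fold. They were chosen on their untreated enrichment, which favors high ranks, so the ranks are a description only. There were 76 significant untreated islands of at least 20 kb, with a median fold of 1.13, and the VMP1 island ranked 1 and the MIR17HG island 4. Among all 1246 candidates of that width, significant or not, their ranks were also 1 and 4, against a median of 1.01. Narrower islands reached higher folds. Of the 38696 candidates, 463 were at or above the VMP1 value and 1603 at or above that of the MIR17HG island, which spans 20.4 kb. By reads above scaled input under the authors' scaling, which weighs width as well, the 2 ranked 9 and 37 of all candidates.

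Of the 76, 16 had a fold of at least 1.2, and at these domains the DRB fold over the untreated fold can be set side by side. The VMP1 island, at 0.63 (0.53 to 0.75), was the third lowest, and the MIR17HG island, at 1.01 (0.50 to 2.14), the third highest. The 14 other domains ran from 0.61 to 1.06 with a median of 0.79, and the interval lay wholly below 1 in 7 of them. DRB islands covered 17.4% to 76.2% of the other domains, with a median of 50.6%. The VMP1 coverage of 64.3% lay within that range, and the MIR17HG coverage of 5.88% below it, with 14 DRB input reads where the others had 32 to 1382. Input density relative to the median of all candidates was 1.60 over the VMP1 island untreated. It was 2.39 over the DRB islands that overlap it, and was also higher with DRB in 13 of the 14 other domains. The DRB values count only the islands called with DRB, each whole, and leave out the rest of each domain. They therefore do not give a change in input over the same sequence. No test of these differences between domains was made, since they were picked on the untreated fold.

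**Figure D5:**
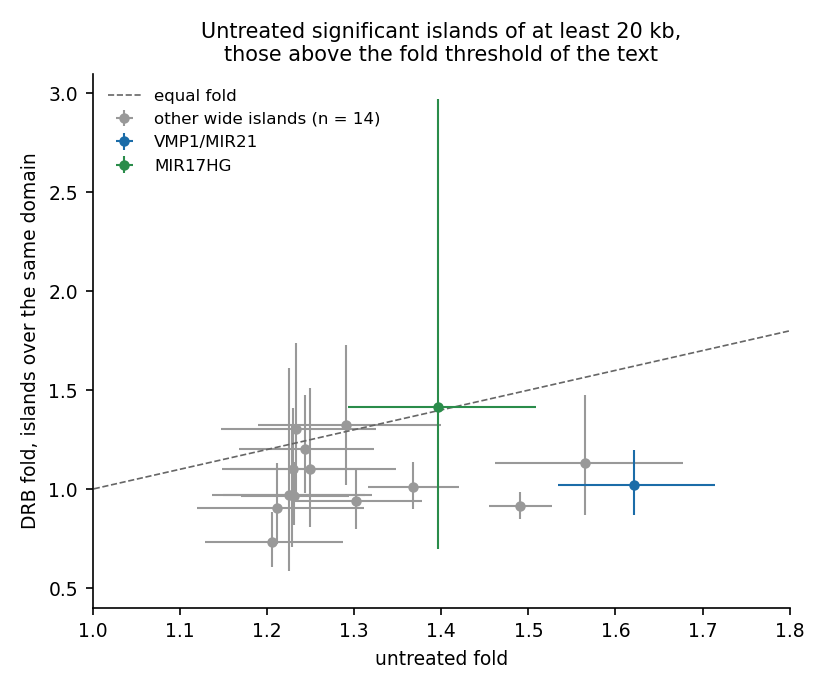
DRB fold against untreated fold at the 16 significant untreated islands of at least 20 kb with a fold of at least 1.2, with exact 95% intervals on both axes and a dashed line of equal fold. The VMP1/MIR21 island is the rightmost point, at 1.62 and 1.02, and the MIR17HG island lies on the line with an interval of 0.70 to 2.97.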

How the data were processed

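Bowtie 1.1.2, FastQC 0.11.5, SICER and hg19 are named in the submitters' processing notes, whereas how SICER was set and how the 2 untreated replicates were pooled is not given in the sources used here. Per the labels' protocols, reads were single-end, 50 nt. The deposited counts are whole reads per island for IP and input. The deposited fold is a ratio, IP over input times 1.07 untreated and 0.861 with DRB. The deposited p-value is a Poisson tail that treats the scaled input as known without error, and the significant lists equal an FDR under 1e-04. The column meanings were checked on the values, since the files have no headers. Starts and ends were raised by 1 to be 1-based.

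Reads were summed over islands that overlap a window by at least 1 bp. Intervals are Clopper-Pearson (fold) or exact conditional (ratios of folds) at 95%. They and the binomial test were tried on simulated Poisson counts, which hold no variation between replicates. Fisher's exact test and the Wald interval were not part of that check. Reads are not independent molecules. Named islands were every significant one, the 3 of most IP reads per window and condition, and the highest and lowest fold in each part, with a few neighbors named after their values were seen. The members and lists were chosen with earlier results of these data known. Gene order and sequences come from RefSeq tables of GRCh38.p14, whose coordinates were not used. Alternatives were other scalings, other borders of the VMP1 end and other calling rules. Computations ran in Python 3.11.15 with SciPy 1.17.1, pandas 2.3.3 and numpy 2.4.6, and plots in matplotlib 3.10.9.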

Additional observations from a re-analysis of the deposited data

Results flagged for a closer look

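The fold of the microRNA end of VMP1 relative to the rest of its window differed between the conditions. Untreated cells gave 1.46 and DRB-treated cells 0.90, so the second ratio was 0.61 (Wald interval 0.51 to 0.73) times the first. No p is given for this difference, because the end was chosen on its untreated enrichment, which favors a value under 1. The islands of the 2 conditions also differ in extent.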

How the results depend on the processing

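With the summed fold of all nuclear islands set to 1 in each condition, the untreated fold was 1.06 in the VMP1 window, 1.40 at its microRNA end and 0.95 in its rest. The DRB folds were then 0.80, 0.74 and 0.83, and DRB over untreated 0.75, 0.53 and 0.87. With the median island of each chromosome set to 1, the untreated folds were 1.06, 1.40 and 0.95, the DRB folds 0.74, 0.69 and 0.77, and DRB over untreated 0.70, 0.49 and 0.80. There MIR17HG had 1.23 untreated, DRB over untreated was 0.72, and its DRB fold turned from 1.62 to 0.88. With the islands within 1 Mb set to 1, an alternative added after seeing the data and run for VMP1 only, the DRB folds were 0.83, 0.77 and 0.86, and DRB over untreated 0.75, 0.53 and 0.87. Each scaling moves all islands of the VMP1 window in a condition by 1 factor, so the ratio of its end to its rest is the same under all of them.

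Significant islands alone gave an untreated fold of 1.48 in the VMP1 window. Islands wholly inside the window, also added later, gave 1.16 in the window and 1.62 at the end untreated, and the untreated end over the rest became 1.61. With the end widened from 31 kb to the widest version tried it was 1.36. With DRB the end over the rest stayed from 0.90 to 0.91 under the 5 alternatives tried, and none passed Fisher's exact test (two-sided, p from 0.233 to 0.305). The count of untreated significant islands was also 3 at a 10 times lower FDR of the authors. The choice of the windows on these values favors that count, and the share of all candidates at that cut is not given here, so nothing is read from it. The count of DRB islands was 0 at the lower FDR and under the binomial test. No paired analysis was possible because the untreated replicates are pooled in the deposited table and DRB has 1 of each library, and for the same reason no replicate could be left out. Depth limits MIR17HG most, where 62 IP and 33 input reads stand behind the DRB value.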
